A study of Mus musculus with 38 samples.

Results

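The aryl hydrocarbon receptor and the proteins that work directly with it were followed in the lung and forestomach of mice dosed with dibenz(a,h)anthracene (DBahA), a polycyclic aromatic hydrocarbon. The set held 5 genes, named by their role with earlier results of these data known and found on the array by transcript accession: Ahr (NM_013464), Arnt (NM_001037737), Arnt2 (NM_007488), Ahrr (NM_009644) and Tiparp (NM_178892). They were represented by 9 of the 55681 probes and were 5 of the 20018 genes with a symbol. Arnt2 had 1 probe and the others had 2 each. Each gene is described at its brightest probe, called probe 1.

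The mice were adult male MutaMouse, a transgenic strain, aged about 10 weeks per the labels. They received olive oil by gavage (D0) or DBahA in olive oil at 6.25 (D1), 12.5 (D2) or 25 (D3) mg/kg a day for 28 days, and tissue was taken 72 h after the last dose. RNA came from random pieces of each organ, so the cell types in a sample were those of that piece. From D0 to D3 there were 5, 5, 4 and 5 mice with a lung array and 5, 5, 4 and 4 with a forestomach array. By the labels mouse 18 (D3) had 2 forestomach arrays, which were averaged, and no forestomach array carried the number 20. Whether both arrays came from 1 animal is not stated in the labels. All values are log2 ratios of tissue RNA (Cy5) over the RNA of pooled mouse cell lines sold as a universal reference (Cy3), so a value of 0 means as much signal as in that pool. The ratio of 1 probe was compared across samples and never with that of another probe.

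Ahr is a transcription factor of the bHLH-PAS family that rests in the cytoplasm with Hsp90. When a planar aromatic ligand binds, it enters the nucleus, pairs with Arnt, and binds response elements of genes such as Cyp1a1 and Cyp1b1, whose enzymes oxidise aromatic hydrocarbons. Ahrr, a repressor that competes for Arnt, and Tiparp, an ADP-ribosyltransferase that acts against the receptor, are themselves targets of Ahr and close a feedback loop.

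The response element has the core letters GCGTG, and the promoters of both feedback genes were searched for them because Ahrr gave the clearest difference with dose among the members. RefSeq promoters (GRCm38.p6, from 250 bases before to 50 bases after the start of the gene) were at hand for 4 of the 5 genes, all but Ahr. The promoter of Ahrr, at chr13:74292282-74292581 on the minus strand, held 3 matches, with the first base at -107, -82 and -27 from the start. The promoter of Tiparp, at chr3:65528197-65528496 on the plus strand, held 1 match on the opposite strand at -170, which reads CACGC on the strand shown. In both, written 5′ to 3′ in the direction of the gene, capitals mark the matches.
Ahrr: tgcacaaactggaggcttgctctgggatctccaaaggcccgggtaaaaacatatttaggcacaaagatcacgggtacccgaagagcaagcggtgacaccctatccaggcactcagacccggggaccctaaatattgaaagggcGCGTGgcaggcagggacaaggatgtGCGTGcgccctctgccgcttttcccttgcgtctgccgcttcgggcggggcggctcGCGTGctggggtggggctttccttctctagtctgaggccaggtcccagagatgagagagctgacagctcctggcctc
Tiparp: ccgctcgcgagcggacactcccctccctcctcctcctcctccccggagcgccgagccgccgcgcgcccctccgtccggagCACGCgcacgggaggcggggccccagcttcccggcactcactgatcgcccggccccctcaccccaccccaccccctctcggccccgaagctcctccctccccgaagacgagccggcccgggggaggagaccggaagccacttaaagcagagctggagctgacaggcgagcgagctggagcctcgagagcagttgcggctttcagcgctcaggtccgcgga
Arnt held 1 match, at -29, and Arnt2 held 0. Among all 32851 promoters of this length, 32.4% held at least 1 match on either strand and 3.91% held 3 or more, so 1 match is common. A match is only a description of the letters.

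The arrays were of similar quality within the lung and less so within the forestomach. Between 41.5% and 63.8% of probes were well above background in Cy5 on the lung arrays, and between 30.1% and 60.8% on the forestomach arrays. The mean log2 ratio of lung epithelium markers was 5.39 to 6.81 on lung and 0.30 to 1.53 on forestomach arrays, and that of squamous epithelium markers was 2.93 to 3.64 on forestomach and -0.50 to -0.15 on lung arrays. Markers of the glandular stomach, a neighbouring tissue, divided the forestomach arrays: their mean log2 ratio was 0.37 to 0.94 on 6 arrays and 4.83 to 6.90 on 13. The 4 members that gave a level are therefore also given for these arrays apart. The 2 averaged arrays labelled mouse 18 lay on either side of this divide, at 0.94 and 6.51. In such pieces of tissue, fewer cells of a type and less RNA per cell cannot be told apart.

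Ahr, the receptor itself, separated lung from forestomach in every mouse. In the lung of D0 mice 1 to 5 its log2 ratio was 1.92, 1.36, 1.60, 1.68 and 1.67. In the forestomach of the same mice it was -0.23, -0.54, -0.40, -0.25 and -0.70. The tissues did not overlap, and the lowest lung value lay far above the highest forestomach value. The mean was 1.65 ± 0.20 in lung and -0.42 ± 0.20 in forestomach (SD over 5 mice each). Lung exceeded forestomach by 2.07 on the log2 scale (SE 0.12), or 4.20-fold, with a limma adjusted p of 6.53e-16. Over the 18 mice with both tissues, vehicle and dosed, lung was higher in 18, by 1.48 to 2.37 on the log2 scale with a median of 1.89. On the arrays with high and low glandular markers the median log2 ratio of Ahr was -0.40 and -0.47, both far under the lung values. The second Ahr probe was well above background on 1 of 38 arrays and bears on no level.

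Ahr in lung had a lower mean at each dose than at D0, and none of the differences passed the test. At D1 the log2 ratio of lung Ahr was 1.24, 1.49, 1.78, 1.25 and 1.71. At D2 it was 1.16, 1.36, 1.47 and 1.54. At D3 it was 1.05, 1.35, 1.30, 1.22 and 1.56. Each dose overlapped the D0 mice. The means were 1.49 ± 0.25 (n = 5), 1.38 ± 0.17 (n = 4) and 1.30 ± 0.19 (n = 5, all SD), and the log2 fold change at D3 was -0.35 (95% interval -0.60 to -0.091, SE 0.12, limma adjusted p = 0.227). The adjusted p was 0.884 at D1 and 0.641 at D2. With arrays only centred on their median, without the loess step, the sign of all 3 differences turned to positive, with 0.12 at D3. Within slides that held both groups, Ahr was below D0 in 2 of 4 at D1 (differences -0.44 to 0.18), in 2 of 3 at D2 (-0.14 to 0.0069) and in 4 of 4 at D3 (-0.46 to -0.0033).

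In forestomach Ahr lay at nearly the same level at all doses. Over the dosed mice the log2 ratio ran from -0.63 to -0.12, overlapping the D0 values. The means of D1, D2 and D3 were -0.45 ± 0.15, -0.39 ± 0.19 and -0.42 ± 0.11 (SD, n = 5, 4 and 4 mice). The log2 fold changes against D0 lay between -0.030 and 0.032 with 95% intervals within -0.25 to 0.27. Ordered by mean, the Ahr levels ran from lung D0 through lung D1, D2 and D3 to forestomach D2, D0, D3 and D1. Of these neighbours, lung D3 and forestomach D2 did not overlap, while every other pair of neighbours did.

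**Figure D1:**
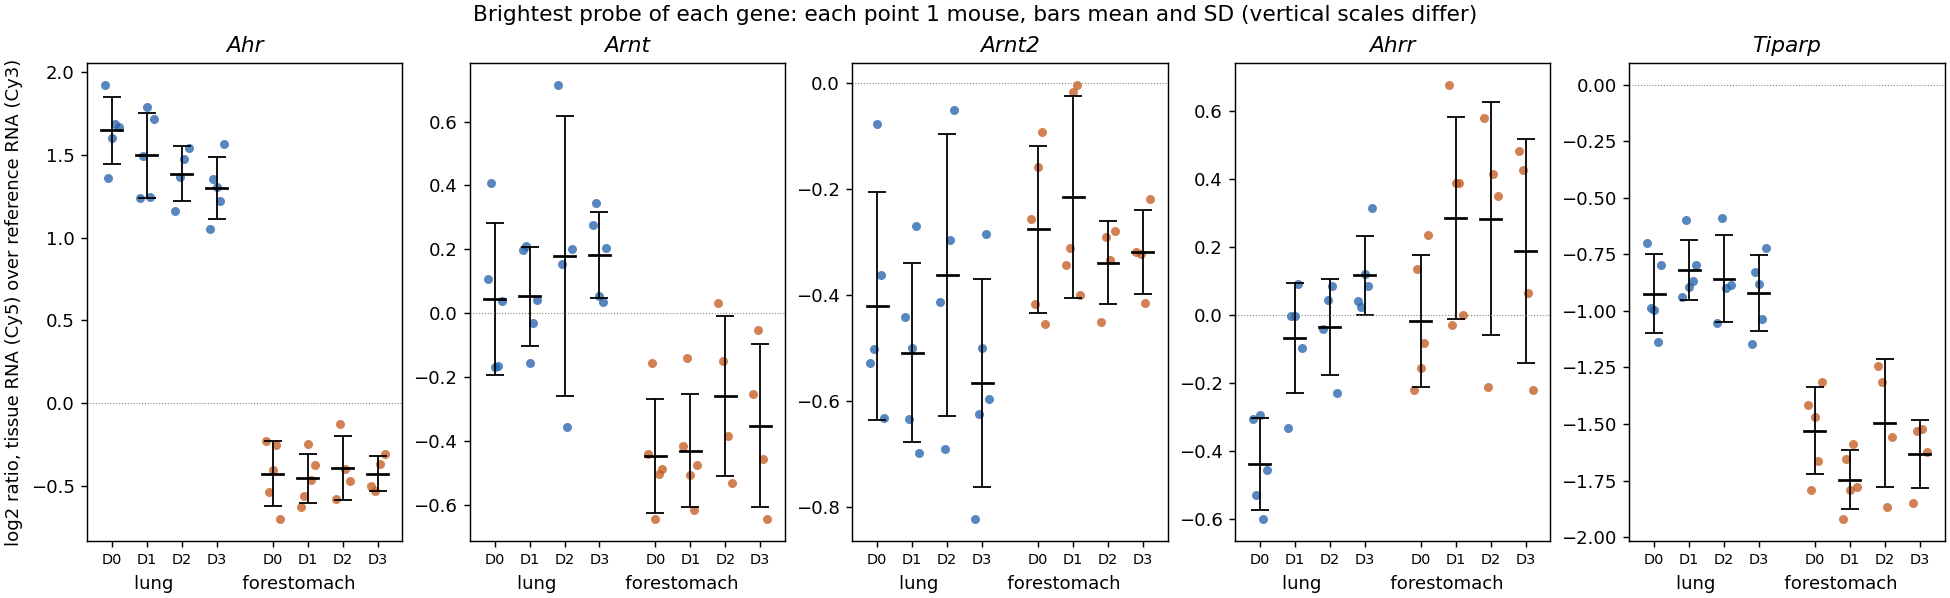
Log2 ratio of tissue over reference RNA at the brightest probe of each of the 5 genes (vertical axis, 1 panel a gene with its own scale) in the 4 dose groups of lung (blue) and forestomach (orange). Points are mice, and bars the mean and SD. Ahr and Tiparp of the 2 tissues do not overlap at any dose, and Ahrr in lung lies at -0.44 on average at D0 and at 0.12 at D3.

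Arnt is the partner that Ahr needs to bind DNA, and it also pairs with the hypoxia-inducible factors. In lung of the D0 mice its log2 ratio was 0.11, 0.41, -0.17, -0.16 and 0.038. In their forestomach it was -0.44, -0.16, -0.64, -0.51 and -0.49. The highest forestomach value just reached the lowest lung values. Lung was higher by 0.49 (SE 0.14, limma adjusted p = 0.00927) at probe 1, which is under 1.5-fold and was not called. Probe 1 was higher in lung in 18 of 18 mice, by 0.028 to 0.74. On the forestomach arrays with high and low glandular markers its median was -0.42 and -0.50. Against the D0 forestomachs with low markers alone, mice 2 and 5, the tissue difference was 0.37 (limma adjusted p = 0.184). Against those with high markers, mice 1, 3 and 4, it was 0.57 (adjusted p = 0.0102). With median centring it was 1.06 (adjusted p = 0.182).

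The second Arnt probe went the other way. Its log2 ratio at D0 was -0.52, -0.82, -0.40, -0.56 and -0.58 in lung. In forestomach it was -0.51, -0.16, -0.44, -0.15 and -0.22. Lung was lower by this probe, with a log2 fold change of -0.28 (SE 0.090, limma adjusted p = 0.0182), and it was lower in 16 of 18 mice. The median of probe 2 was -0.44 on the forestomach arrays with high glandular markers and -0.16 on those with low markers, a gap as large as the tissue difference, and the part of glandular content in it was not tested. The probes did not vary together either, with r = -0.10 over the 19 lung mice and r = -0.29 over the 18 forestomach mice. The direction of Arnt between the tissues thus cannot be given from these data.

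Arnt did not pass the test at any dose. At D3 the lung values of probe 1 were 0.28, 0.34, 0.054, 0.035 and 0.21, within the range at D0. At D2 they spread most, from -0.36 to 0.72. The log2 fold changes in lung were 0.0081 to 0.14 (95% intervals within -0.30 to 0.46, smallest adjusted p 0.803 by limma) and in forestomach 0.015 to 0.19 (within -0.26 to 0.48). By mean, the Arnt levels ran from lung D3 through lung D2, D1 and D0 to forestomach D2, D3, D1 and D0, and every pair of neighbours overlapped.

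Arnt2, the paralogue of Arnt best known from the nervous system and kidney, was not well above background in Cy5 on any of the 38 arrays. Its log2 ratios, -0.82 to -0.051 in lung and -0.45 to -0.0038 in forestomach, therefore give no level, no order and no fold. In the reference RNA the same probe was well above background on 37 of 38 arrays.

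Ahrr was the member that differed with dose in lung. The log2 ratio at D0 was -0.31, -0.53, -0.29, -0.60 and -0.46 in mice 1 to 5, and none of these 5 lungs was well above background. At D1 it was -0.33, -0.0016, -0.0032, 0.092 and -0.10 in mice 6 to 10. At D2 it was -0.041, 0.045, 0.087 and -0.23 in mice 11, 12, 13 and 15. The D1 group touched the D0 range through mouse 6 alone, and the D2 group lay wholly above it. At D3 the values were 0.042, 0.024, 0.12, 0.085 and 0.32 in mice 16 to 20. All 5 D3 lungs were above all 5 D0 lungs, and all 5 were well above background.

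The log2 fold change of Ahrr in lung at D3 was 0.55 (SE 0.091, 95% interval 0.37 to 0.74), or 1.47-fold, with an adjusted p of 0.00206 by limma. It passed the adjusted p of 0.05 and missed the 1.5-fold limit, and so was not called. Since no D0 lung was well above background, the fold is also given from the mean Cy5 signal alone. By it Ahrr was 1.48-fold higher at D3, 1.33-fold at D2 and 1.32-fold at D1. These are ratios of means without an interval, so they set no lower limit. With 1 dye orientation they are open to dye bias. The log2 fold changes at D1 and D2 were 0.37 (SE 0.091, adjusted p = 0.164) and 0.40 (SE 0.096, adjusted p = 0.0900), neither past the threshold in limma. The doses share their D0 mice, so these are not separate comparisons.

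By the fold and adjusted p together, 0 of 5 members were called in lung at D1, D2 and D3, where 0.140%, 0.264% and 0.639% of all probes were. By the adjusted p alone 1 of 5 passed at D3, Ahrr, where 1.33% of all probes did. At an unadjusted p under 0.05 in limma the 3 doses had 1, 1 and 2 of 5 members, and 3638, 4492 and 6267 of all 55681 probes. The arrays lay on 5 slides, and within slides Ahrr was higher than D0 in 4 of 4 at D1 (by 0.29 to 0.69), in 3 of 3 at D2 (by 0.37 to 0.57) and in 4 of 4 at D3 (by 0.41 to 0.70).

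How far the Ahrr difference passed the limits depended on the background and on the scaling. With slide as a block the D3 value was 0.60 (adjusted p = 4.54e-04) and the call was made, with 0.41 (adjusted p = 0.0316) at D1 and 0.47 (adjusted p = 0.0212) at D2. By the log ratio of the scanner software, which subtracts background, it was 2.11 (adjusted p = 0.0014). With median centring it was 0.42 and the adjusted p was 0.732. Leaving out any 1 lung of D0 or D3 kept it between 0.51 and 0.59. Without mouse 1 or mouse 3 of D0, whose values were the highest of that group, it passed 1.5-fold. The second Ahrr probe was well above background on no array and gave 0.18 (adjusted p = 0.380).

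**Figure D2:**
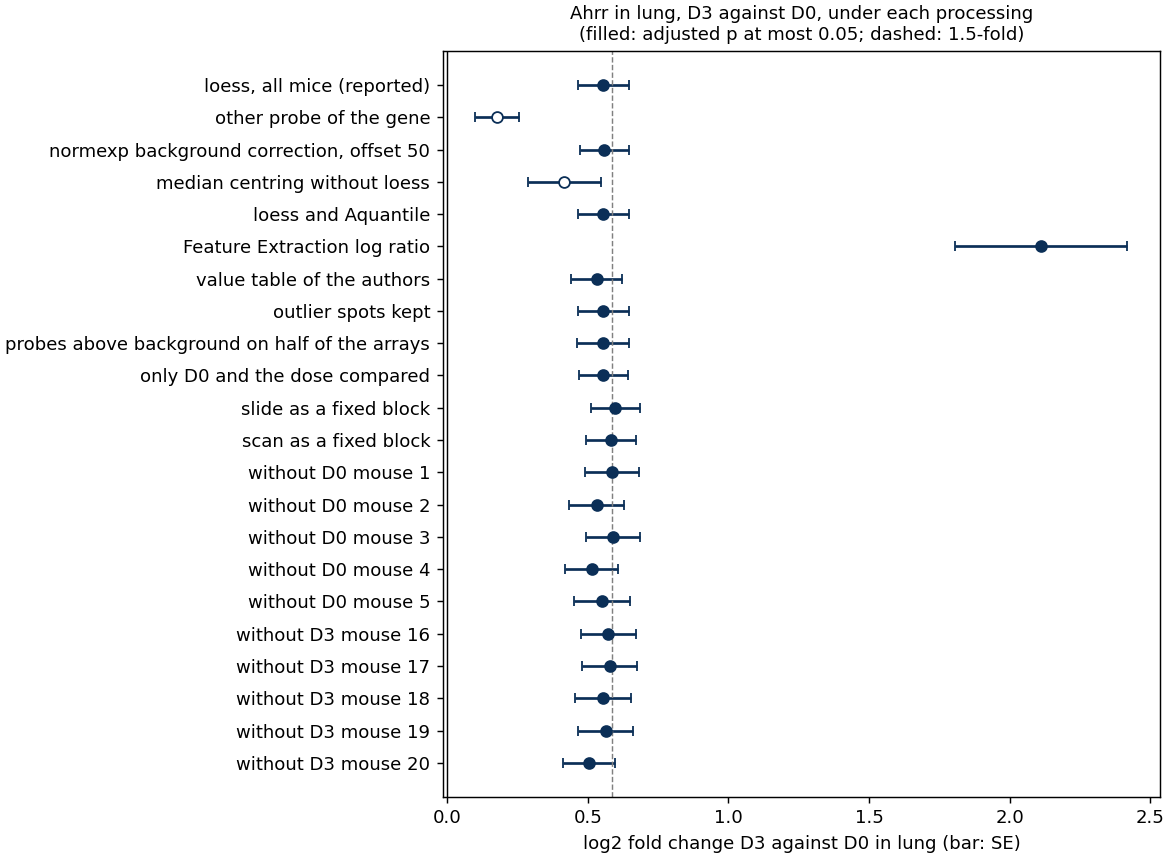
Log2 fold change of Ahrr in lung, D3 against D0 (horizontal axis, bars SE), under each processing and without each mouse. The reported value of 0.55 lies just under the dashed 1.5-fold line at 0.58, the scanner software's log ratio gives 2.11, and the 2 open points, the second probe and median centring, did not pass the adjusted p.

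In forestomach Ahrr was spread widely at every dose and did not pass the test. Its log2 ratio at D0 was -0.22, 0.13, -0.16, -0.081 and 0.24. At D1 it was 0.68, -0.028, 0.39, 0.39 and 0.0005, and at D2 it was 0.58, -0.21, 0.42 and 0.35. At D3 it was 0.48, 0.43, 0.064 and -0.22. Each dose held mice above all D0 mice and mice within their range. The log2 fold changes were 0.21 to 0.30 with 95% intervals within -0.18 to 0.69, adjusted p of at least 0.999 by limma. The arrays with low glandular markers gave Ahrr values of 0.13 to 0.39 with a median of 0.29, and those with high markers -0.22 to 0.68 with a median of -0.028. The ranges overlapped, and the part of glandular content in the Ahrr values was not tested.

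At D0 the lung held less Ahrr signal than the forestomach, the reverse of Ahr. Lung minus forestomach was -0.42 (SE 0.14, limma adjusted p = 0.0214), and the 5 lungs did not overlap the 5 forestomachs. It was under 1.5-fold and not called. No D0 lung was well above background, and 2 of 5 forestomachs were. The mean Cy5 signal alone was 1.42-fold higher in forestomach, again without an interval. Against the D0 arrays with low glandular markers alone, mice 2 and 5, the difference was -0.62 (limma adjusted p = 1.70e-04) and called. Against those with high markers, mice 1, 3 and 4, it was -0.28 (adjusted p = 0.238). Mice 2 and 5 had the highest Ahrr values of the D0 forestomachs, and this split was made after seeing the data. Over all 18 mice Ahrr was lower in lung in 14. By mean, the Ahrr log2 ratios ran from forestomach D1 through forestomach D2 and D3, lung D3, forestomach D0, lung D2 and D1 to lung D0. Every pair of neighbours overlapped. As no D0 lung was well above background, the place of lung D0 is not that of a measured level.

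Tiparp, the ADP-ribosyltransferase, was higher in lung than in forestomach by both of its probes. At probe 1 the log2 ratio in D0 lungs was -0.70, -0.99, -1.0, -1.14 and -0.80. In the forestomach of these mice it was -1.42, -1.79, -1.47, -1.66 and -1.32. The tissues did not overlap. The log2 fold change was 0.61 (SE 0.11, limma adjusted p = 6.25e-05), or 1.52-fold. At probe 2 the lung values were 0.38, 0.35, 0.72, 0.49 and 0.29 and the forestomach values -0.40, -0.85, -0.38, -0.40 and -0.0015, again apart. The log2 fold change there was 0.85 (SE 0.13, adjusted p = 2.24e-06), or 1.80-fold, and both probes were higher in lung in 18 of 18 mice.

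The probe 1 value lay close to the 1.5-fold limit. Without mouse 1 or 5 of the D0 lungs, or mouse 2 or 4 of the D0 forestomachs, it was 0.54 to 0.58 and fell short of the limit. On the arrays with high and low glandular markers the median was -1.62 and -1.57 at probe 1, and -0.53 and -0.24 at probe 2. With median centring the difference was 1.20 with an adjusted p of 0.0745.

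Tiparp did not pass the test with dose in either tissue. In lung at D3 its probe 1 log2 ratio was -1.15, -0.83, -0.88, -1.03 and -0.72, the same range as at D0. In forestomach at D1 it was -1.92, -1.65, -1.79, -1.59 and -1.78, the group with the lowest mean. The log2 fold changes in lung were 0.0011 to 0.10 at probe 1 and -0.15 to -0.094 at probe 2. In forestomach at probe 1 they ran from -0.22 to 0.035 (95% intervals within -0.47 to 0.30). By mean, the Tiparp levels ran from lung D1 through lung D2, D3 and D0 to forestomach D2, D0, D3 and D1. The gap between lung D0 and forestomach D2 did not overlap, and all other neighbours did.

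In forestomach 0 of 5 members were called at D1, D2 or D3, where 0% of all probes were. The unadjusted p in limma was under 0.05 for 0 members at any dose, and for 2404, 1728 and 1984 of all probes at D1, D2 and D3. The dose response was also set against itself in both tissues, as lung minus forestomach. In these, 0 of 5 members were called at D1, D2 and D3, against 0.0323%, 0.0611% and 0.172% of all probes, by the same call. At an unadjusted p under 0.05 the count was 0 members and 2528, 2051 and 2784 of all probes. For Ahrr the D3 response was 0.35 larger in lung (95% interval -0.065 to 0.76), and for Ahr it was -0.35 (95% interval -0.70 to 0.0040), both with adjusted p of at least 0.999. A dose response that differed between the tissues was thus not shown for any member.

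**Figure D3:**
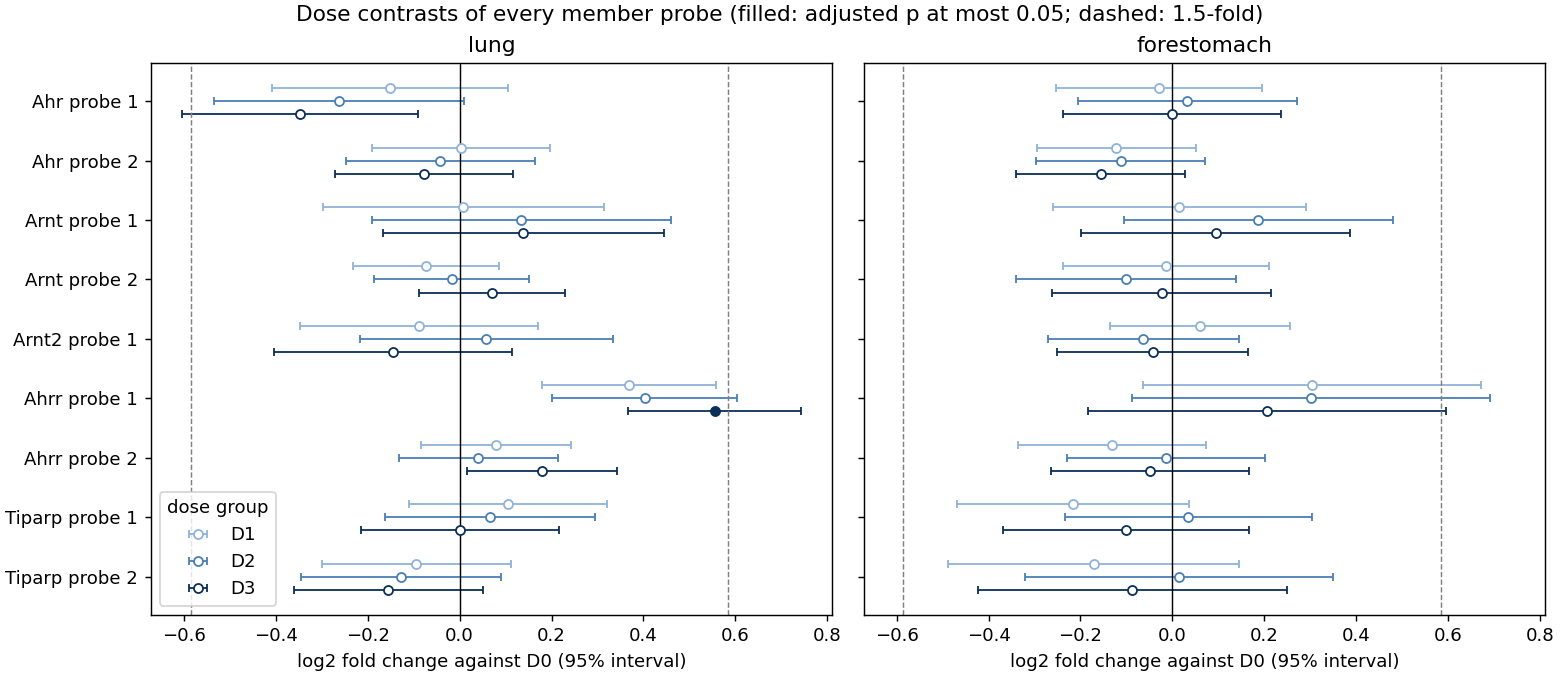
Log2 fold change against D0 with its 95% interval (horizontal axis) for all 9 probes at the 3 doses in lung and forestomach. Ahrr probe 1 in lung at D3, at 0.55, is the only filled point (adjusted p of at most 0.05), and no point reaches the dashed 1.5-fold lines. With median centring the lung differences of Ahr probe 1 turn positive.

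Between the tissues of the D0 mice 2 of 5 members were called, Ahr and Tiparp, where 16.2% of all probes were. By the adjusted p alone 4 of 5 passed, where 27.7% of all probes did. The median log2 fold change of the 5 members was 0.49, and that of all probes was -0.015. The member median was the value of Arnt probe 1, which the second Arnt probe reversed, and it counted Arnt2, which gave no level. It therefore gives no direction for the members as a set.

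The genes around the receptor were counted from 4 lists. The 3 chaperones of the cytoplasmic complex reported here had a median of 0.39. Of these Hsp90aa1 (0.99, adjusted p = 0.00557) was called higher in lung, while Hsp90ab1 (0.39) and Ptges3 (0.33) did not pass. Of 11 coactivators and turnover factors 9 were higher in lung, with a median of 0.23, and Ncoa1 (0.79) was called. Of 12 other bHLH-PAS factors, Epas1, a hypoxia-inducible factor abundant in endothelium, was far higher in lung (5.77), and Hif1a (-0.70) and Npas4 (-1.30) were lower. The endothelium markers were at 3.09 to 4.05 in lung and 0.63 to 1.03 in forestomach, and their part in the Epas1 difference was not tested.

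The gene battery of the receptor was mostly lower in lung, where Ahr itself was higher. Of all 55681 probes 4233 were called lower in lung. Of the 9 battery genes 6 were, with a median of -1.26 over the 9. They were the detoxifying enzymes Gsta1 (-5.78), Nqo1 (-4.00), Aldh3a1 (-2.50), Ugt1a6b (-1.51) and Cyp1b1 (-1.26), and the transcription factor Nfe2l2 (-1.15), which drives several of the same enzymes. Cyp1a1 alone was called higher in lung (2.03, adjusted p = 0.0282). In forestomach at D0 it ranged from -0.23 to 3.61 and was well above background in 2 of 5 mice. Between the same tissues the squamous epithelium markers had a median of -3.90 and the glandular stomach markers of -4.18. The part of cell types in the battery differences was not tested.

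**Figure D4:**
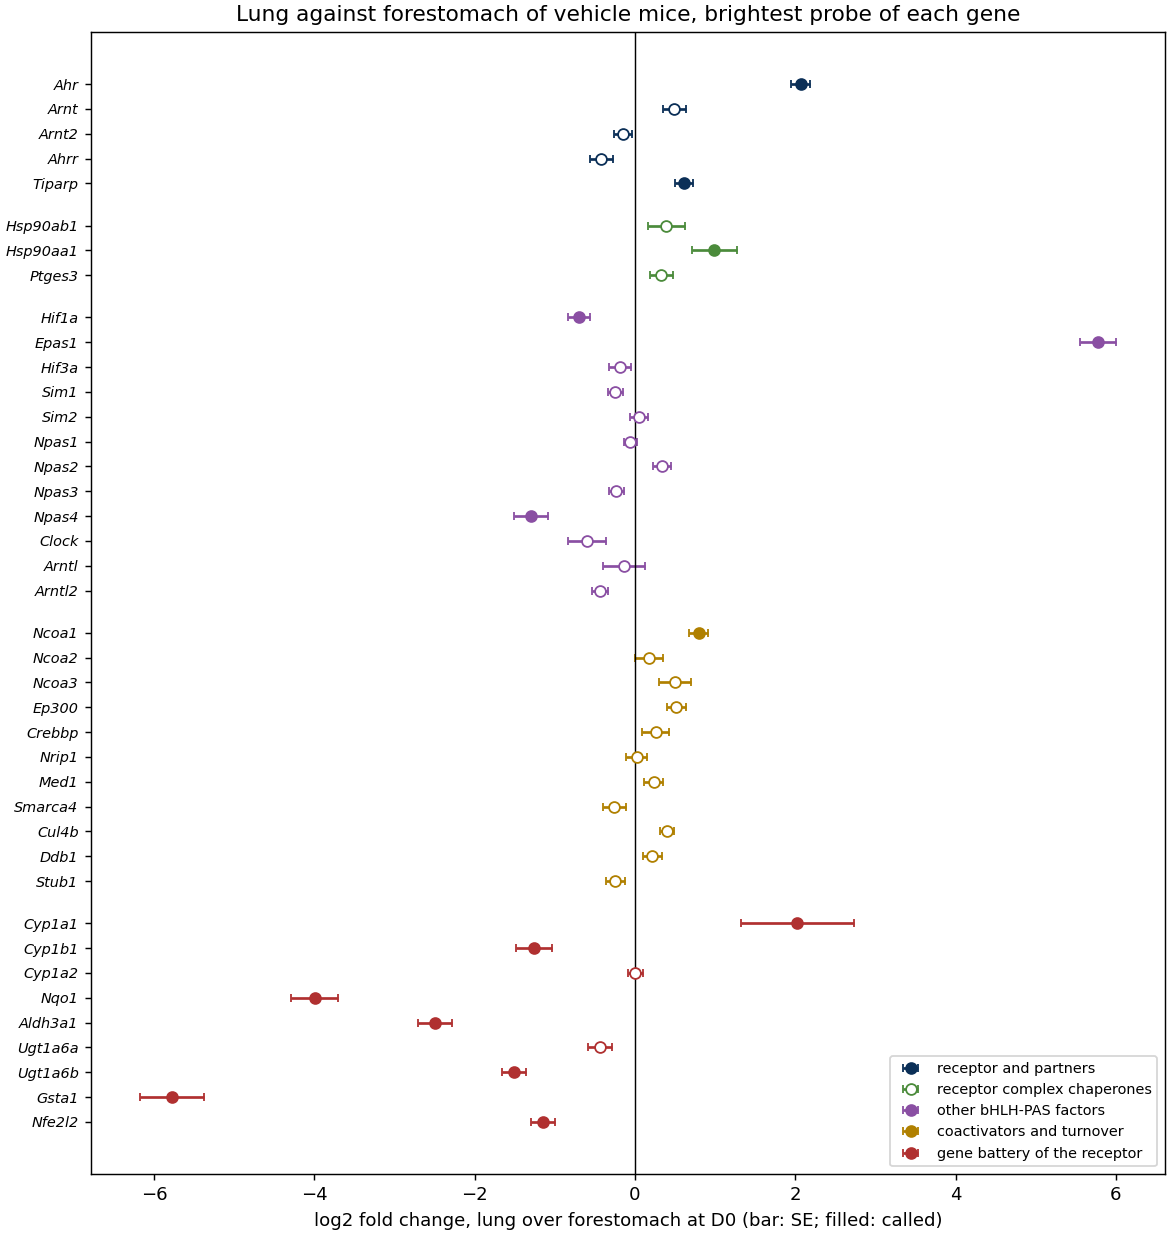
Log2 fold change of lung over forestomach in D0 mice (horizontal axis, bars SE) for the members and the 4 lists around them, at the brightest probe of each gene. Filled points were called. Ahr at 2.07 stands far to the right of the other members, and most of the gene battery lies on the left.

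With dose, few genes of these lists were called, and all in lung. Cyp1b1 was higher at D2 (0.73, adjusted p = 0.0365) and at D3 (0.66, adjusted p = 0.0235). Its log2 ratio in lung was -2.12 to -1.26 at D0, -1.30 to -0.67 at D2 and -1.32 to -0.73 at D3, so both doses touched the D0 range. Arntl, the core clock partner of Clock, was lower at D2 (-1.35, adjusted p = 0.0257) and at D3 (-1.49, adjusted p = 0.00345). Cyp1a1 in lung had a log2 ratio of 1.93 to 3.77 in D0 mice. Its range was 0.36 to 1.31 in D1 mice, 0.87 to 1.66 in D2 mice and 0.73 to 4.31 in D3 mice. It was not called at D1 (-1.91, limma adjusted p = 0.172) or D2 (-1.63, adjusted p = 0.270), although both ranges lay under that of D0. At D3 its mean was 2.13 against 2.86 at D0, and it was not called there either. Of the 3 chaperones and 11 coactivators 0 were called at any dose in either tissue, and in forestomach 0 of the genes of the 4 lists were.

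The list medians in lung at D3 were -0.33 for the chaperones, -0.065 for the bHLH-PAS factors, -0.028 for the coactivators and -0.13 for the battery. The median of all probes was -3e-04. The Cyp1b1 and Arntl calls rested in part on single mice. The Cyp1b1 call at D2 was lost without mouse 1, 2 or 3 of D0 or mouse 11, 13 or 15 of D2 (log2 fold change 0.62 to 0.74). At D3 it was lost without mouse 1 or 3 of D0 or mouse 16, 17 or 20 of D3 (0.55 to 0.66). The Arntl call at D2 was lost without mouse 1, 2, 4 or 5 of D0 or mouse 12, 13 or 15 of D2 (-1.41 to -1.23), and at D3 it was kept in 10 of 10 such fits.

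The genes whose log2 ratio most resembled each member across mice were read as a description, with the arrays of each tissue as shared source and no test. Over the 19 lung mice, among 11659 genes well above background, Ahr was most like Wdcp (Pearson r = 0.86), Xbp1 (0.83), Pkdcc (0.82), Kat6a (0.81) and Slc25a51 (0.81). Arnt was most like Nfia (0.92), Hes1 (0.89), Thumpd1 (0.89), Rnf40 (0.88) and Ints9 (0.86). Among the genes most like Tiparp were Bnip3l (0.84), Armcx1 (0.83), Pttg1ip (0.83) and Zfp281 (0.83).

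Over the 18 forestomach mice, among 9318 genes, Ahr was most like Fam20a (Pearson r = 0.92), Iars (0.87), Atp6v1c1 (0.86), Ccnyl1 (0.86) and Larp4 (0.85). Arnt was most like Tcaf2 (0.92), Ntf3 (0.89), Smchd1 (0.88), Ensa (0.88) and Cstf3 (0.87). Tiparp had weaker likeness there, with Tent4b (0.73), Nhlrc2 (0.69), Bdp1 (0.68) and Tcea3 (0.68). None of these names recurred between the tissues for a member. Ahrr and Arnt2 were not well above background on every array and have no such genes.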

How the data were processed

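RNA of 19 lung and 19 forestomach samples was labelled with Cy5 and hybridised with a Cy3-labelled reference RNA to two-colour Agilent arrays, without dye swap. The deposited scanner files (Agilent Feature Extraction 10.7.3.1, per the file headers) hold median signal intensity for each of 62976 spots and the software's log10 ratio. Per the file headers they also hold flags, used as a score of 0 or 1, for outliers and for signal well above background. A table of log2 ratios deposited by the authors was used as an alternative. Set against the loess values it had a slope of 0.990 to 0.998 and column medians of -0.042 to -0.020, so its scale is log2 and its direction Cy5 over Cy3.

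Control spots and outlier flags (372 probe values) were left out, intensities were loess-normalised within each array without background correction in limma 3.58.1 (R 4.3.3), and spots of a probe were averaged. Doses were compared with D0 in a fit of each tissue's 4 groups, and tissues in a fit of all 8. The methods name MAANOVA, and limma was used in its place. P-values were adjusted by Benjamini-Hochberg over all 55681 probes, and a call needed an adjusted p of at most 0.05 and a 1.5-fold change. No spot was saturated. The precision of a value is set by the number of arrays. The fit was tested on simulated data.

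Genes were named by the transcript accession that the array gives for each probe, with the symbol that RefSeq lists for it. Each gene is given at its probe of highest mean Cy5, with other probes where they differ. Of the lists, genes that were called and up to 4 defining genes were named. Like genes were named from the 5 of highest Pearson correlation. Some genes of the lists and among the like genes are not reported here. The members and all lists were chosen with earlier results of these data known. A mouse number in the labels marks lung and forestomach of 1 animal. The deviations of the 2 tissues from their group means correlated at 0.083 to 0.37 over 14447 probes in the 18 mice with both, above 0.1 in 17. Both tissues of a mouse number lay on the same slide, apart from the second forestomach array of mouse 18. The correlation therefore cannot tell a shared animal from a shared slide. Whether mouse 18 carries 2 arrays of 1 animal is not stated in the labels. The second of these arrays lay on slide 5, as did the lung array of mouse 20. P-values measure the spread between these mice.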

Additional observations from a re-analysis of the deposited data

How the results depend on the processing

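The alternatives were another probe, normexp background correction, median centring without loess, loess with Aquantile (which leaves ratios as they are), the scanner software's log ratio, the authors' table, outlier spots kept, a filter on dim probes, fits of D0 and 1 dose, slide or scan as a block, mouse 18 as 2 replicates, the glandular score as a covariate, and each mouse left out. Forestomach arrays with high or low glandular markers alone were added after seeing the data. The number of members called moved from 0 to 1 (Ahrr) at D1, D2 and D3 in lung by the software's log ratio, and at D3 also with slide as a block. Without 1 mouse it was 0 to 1 at D3. Between tissues it was 1 in place of 2 by the other probe and by median centring, and 1 to 2 without 1 mouse. It was 3, with Ahrr added, by the software's log ratio and on the arrays with low glandular markers. Signs reversed for Ahr in lung by the other probe at D1 (0.0025), by median centring at D1 (0.25), D2 (0.24) and D3 (0.12), for the Ahr response difference at D3 by the other probe (0.078), and for Arnt between tissues by the other probe (-0.28). The cause was not tested. Median centring also moved the median of all bright probes, in lung at D3 from 0.0061 to 0.35 and between tissues from -0.050 to 0.46.

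With the mouse number as a replicate block, fixed or random, the Ahr tissue difference stayed at 2.07 (adjusted p = 1.73e-12 and 4.66e-17) and that of Tiparp at 0.61, and the block changed no member's call. Counts over all probes moved more. With median centring they were 0, 5 and 16 at D1, D2 and D3 in lung in place of 78, 147 and 356, and 4561 in place of 9034 between tissues. By the software's log ratio they were 160 and 225 and with slide as a block 130 and 242 at D1 and D2. Without mouse 12 the D2 count was 93. In forestomach the count was 3 at D3 with D0 and D3 fitted alone and 1 with mouse 18 as 2 replicates, in place of 0. The forestomach arrays with low glandular markers held only mouse 15 at D2 and the first array of mouse 18 at D3. Counts on them at these doses are therefore not given. The response differences, 18, 34 and 96 at D1, D2 and D3, were 0, 2 and 2 by median centring and 50 and 60 at D1 and D2 by the software's log ratio. They were 48, 77 and 181 with slide, 44, 76 and 191 with scan, and 43 and 57 (D1, D2) with the fixed and 44 and 68 with the random block of mice. They were 121 at D1 on arrays with low glandular markers and 14 at D2 on those with high markers. The low-marker forestomachs were mice 2 and 5 at D0 and mice 8 and 9 at D1. Without 1 mouse the response differences were 35 at D1, 17 to 58 at D2 and 60 at D3. The calls of Cyp1b1 and Arntl were lost by median centring, and by the software's log ratio except Arntl at D3. That of Cyp1b1 was also lost with D0 and the dose fitted alone, and at D2 by the authors' table and with scan as a block.

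Over the 28 member differences given as ranges, 402 values under alternatives and 360 without 1 mouse held 0 calls. The sign was opposite to that of the reported value in 63 of the 402 and in 50 of the 360. Signal over background limits Ahrr, since the D0 lungs gave no level, and Arnt2, which gave none on any array.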
